A study of Mus musculus with 2 samples.

Results

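Sox4, Sox11 and Sox12 make up the SoxC group of SRY-related HMG-box transcription factors, and they are 3 of the 30905 genes listed in the count matrices. They were taken by their rows in the matrices of both libraries, and the group was chosen with its levels in these libraries already known, so its levels and ratios are a description and no test was made of them. SoxC factors bind DNA through an HMG box and activate transcription through a conserved carboxy-terminal domain. They are known for driving newborn neurons into differentiation, and Sox4 and Sox11 are needed for the formation of retinal ganglion cells in the embryo. The retina at the age studied is at the end of neurogenesis, when the last retinal progenitor cells (RPCs) leave the cell cycle and produce rods, bipolar cells and Müller glia.

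The study asked how loss of Mettl3, the methyltransferase that writes N6-methyladenosine (m6A) on mRNA, alters late retinogenesis. Single-cell RNA sequencing was done on postnatal day 7 mouse retinas, with 2 control retinas mixed into 1 control library and 2 mutant retinas mixed into 1 Mettl3-CKO library. The retinas came from 1 litter. Mettl3-CKO mice carried Six3-Cre and floxed alleles of Mettl3 on both chromosomes. Six3-Cre is expressed in RPCs from early eye development, and the study describes deletion as efficient in the central retina. Controls were littermates, and their alleles are not given in the sources used here. Each group is 1 library, so cells are not replicates, and every interval below covers counting error only.

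The analysed cells, called all cells here, were 3994 control and 3109 Mettl3-CKO cells, part of the 5995 and 6992 barcodes listed, with medians of 4520.5 and 5207 UMIs (unique molecular identifiers, which count captured mRNA molecules) from nuclear genes. Only 5 barcodes occurred in both libraries. Cells were clustered without the SoxC genes and named from marker genes as RPC-like, neurogenic-like, Müller-like, rod/bipolar precursor-like, bipolar-like, amacrine-like, cone-like, rod-like and microglia-like. A further 839 control and 604 Mettl3-CKO cells stayed unnamed. Levels are given as CPM, the UMIs of a gene per 1000000 nuclear-gene UMIs of all cells of a class in a library. The 3′ method counts molecules irrespective of transcript length, so CPM of different genes were set side by side without division by length. Each class was checked against its own markers, of which all or all but 1 were higher than in the other cells in both libraries. The exception was the bipolar list, of which 7 of 10 markers were higher in Mettl3-CKO cells. In that library 1 bipolar and 1 amacrine marker had no UMI in their own class. The clusters were named from the same markers, so this check is not independent of the names. Mettl3 itself was at 39.5 CPM among control cells and 33.1 CPM among Mettl3-CKO cells (ratio 0.837, 95% interval 0.754–0.928). In RPC-like cells it was at 31.4 and 19.9 CPM (ratio 0.634, 0.435–0.927). In every other named class the interval of the Mettl3 ratio included 1. The ratio was 1.18 (0.883–1.58) in neurogenic-like and 0.907 (0.679–1.21) in Müller-like cells. The floxed exons are not named in the sources used here, and 3′ tags that lie outside them would not report the deletion. In the Mettl3-CKO library 1531 cells carried only Xist and 725 only Y-linked UMIs of Ddx3y, Eif2s3y, Uty or Kdm5d, whereas in the control library 8 carried only Xist and 2512 only Y-linked UMIs. Sex and genotype are therefore confounded in part, and ratios for the Mettl3-CKO cells with Y-linked UMIs are given further on.

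All SoxC genes lie on the reverse strand of the GRCm38 (mm10) assembly. Sox4 (ENSMUSG00000076431) lies on chromosome 13 from 28948919 to 28953713, and its single transcript has 1 exon. The lincRNA gene Gm26735 overlaps Sox4 on the opposite strand and was counted apart, with 6106 control and 4816 Mettl3-CKO UMIs against 54083 and 47224 UMIs of Sox4. Whether the counting used strand is not given in the sources used here. Sox11 (ENSMUSG00000063632) lies on chromosome 12 from 27334264 to 27342574 in 1 exon, most of which is a 3′ UTR of 6957 bases. Sox12 (ENSMUSG00000051817) lies on chromosome 2 from 152393611 to 152398063, with a transcript of 1 exon and another of 2 exons. No other GENCODE M21 gene overlaps Sox11 or Sox12.

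Because Mettl3 acts on mRNA, the SoxC transcripts were searched for GGACT, the most common core of the m6A consensus, on the sense strand only. The motif occurred 9 times in Sox4 (1.88 per kb), 11 times in Sox11 (1.32 per kb) and 12 times in Sox12 (2.69 per kb). Among the longest coding transcripts of 21901 genes, 87.6% held the motif, with a median of 1.01 per kb, and Sox12 had a higher density than 95.9% of them. The windows below are shown because Sox11 and Sox12 hold the motif at the same place in the coding sequence, 45 bases before the last base of the stop codon, where Sox4 has other bases. Each has 25 bases of the coding sequence, is read 5′ to 3′ on the transcript, and has the motif in capitals.
Sox4 (chr13:28951730-28951754): tgatctcgggagattggctggagtc
Sox11 (chr12:27341252-27341276): tgatcgcgggGGACTggctggaggc
Sox12 (chr2:152396785-152396809): tgatcgcaggGGACTggcgctcgtc
Of the 25 bases, 21 were identical between Sox4 and Sox11, 19 between Sox11 and Sox12, and 17 between Sox4 and Sox12. The Sox4 motif nearest to its stop codon lies 84 bases before the last base of the stop codon.
Sox4 (chr13:28951769-28951793): tcgaattcccGGACTattgcacgcc
A match to the motif is a description of the sequence, and no methylation was measured here.

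Sox4 was the most abundant SoxC transcript in each named class. Of the SoxC UMIs of all control cells it made up 89.3%, Sox11 7.77% and Sox12 2.97%, and of those of all Mettl3-CKO cells the shares were 84.7%, 11.5% and 3.83%. The makeup differed strongly between classes. Sox11 reached 37.1% of SoxC UMIs in amacrine-like cells of both libraries and 23.7% in control RPC-like cells, but 0.757% in control bipolar-like cells. Sox12 made up 21.5% in control rod-like and 27.6% in control cone-like cells, where the summed SoxC level was low (555 and 456 CPM, against 9813 CPM in control amacrine-like cells).

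The control levels of Sox4 placed the differentiating neurons first. Sox4 was at 6602 CPM in bipolar-like cells, 6225 CPM in neurogenic-like cells, which express Neurog2, Atoh7 and other proneural genes, and 6089 CPM in amacrine-like cells. The intervals of the neurogenic-like and amacrine-like levels overlapped, and the bipolar-like level lay above both. Rod/bipolar precursor-like cells followed at 4886 CPM, Müller-like cells at 2486 CPM and cycling RPC-like cells at 1598 CPM. The lowest retinal levels were in rod-like cells (419 CPM) and cone-like cells (303 CPM), so that the highest level was 21.8 times the lowest one. Microglia-like cells, an immune lineage with no neural origin, had 521 CPM from 111 UMIs, an interval that overlapped that of rod-like cells, and 99 of the 111 UMIs came from 5 cells. The Mettl3-CKO library had the same first 6 classes in the same order, from 6554 CPM in bipolar-like to 1517 CPM in RPC-like cells.

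Sox11 had another order, with a single class far above the rest. In control amacrine-like cells it was at 3642 CPM, followed by 502 CPM in RPC-like, 299 CPM in neurogenic-like and 180 CPM in Müller-like cells. All these neighbours were apart beyond their counting intervals. Rod/bipolar precursor-like (72.7 CPM) and bipolar-like cells (51.1 CPM) overlapped, as did cone-like (27.3 CPM) and rod-like cells (17.0 CPM). The highest level was 214 times the lowest one among control classes, and this range was 63.0-fold among Mettl3-CKO classes (microglia-like cells left out). RPC-like cells thus had less Sox4 but more Sox11 than neurogenic-like cells in both libraries.

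Sox12 was low throughout, with yet another order. It was at 138 CPM in control rod/bipolar precursor-like, 126 CPM in cone-like, 119 CPM in rod-like and 106 CPM in bipolar-like cells, and the intervals of these neighbours overlapped. The level was 33.9 CPM in neurogenic-like, 21.5 CPM in Müller-like and 18.0 CPM in RPC-like cells. Amacrine-like cells, at 82.8 CPM, overlapped the bipolar-like interval and were apart from the neurogenic-like one. In the Mettl3-CKO library these 4 classes and amacrine-like cells were above 100 CPM, and RPC-like and Müller-like cells were again the lowest neural classes (41.8 and 39.1 CPM).

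**Figure D1:**
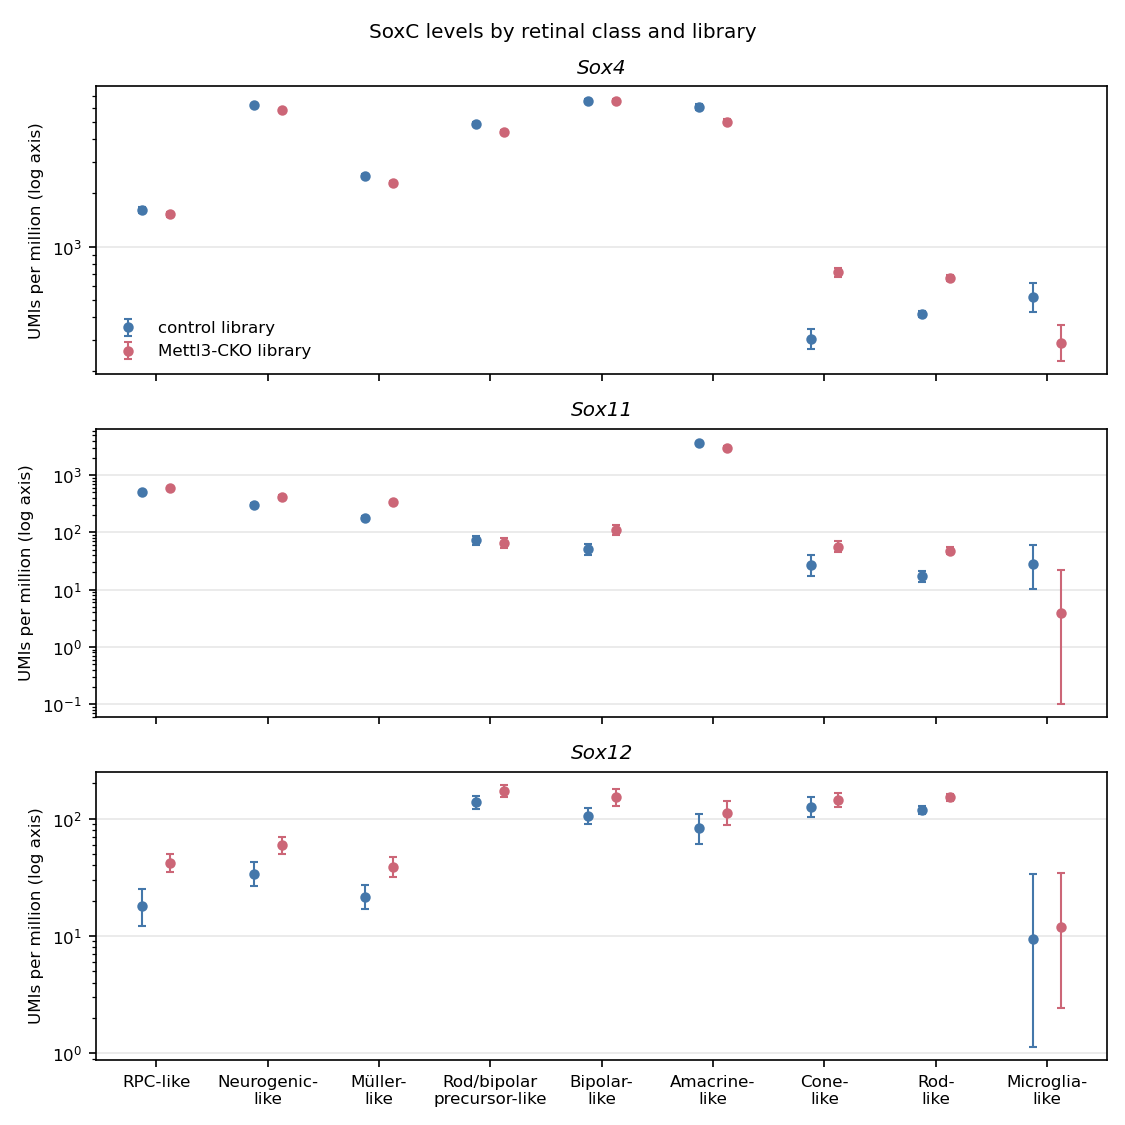
SoxC levels in CPM (log axis) for each marker-named class, with the control library in blue and the Mettl3-CKO library in red; bars are exact Poisson 95% intervals. Sox11 stands at 3642 and 3032 CPM in amacrine-like cells and below 700 CPM in all other classes, whereas Sox12 is lowest in RPC-like, Müller-like and microglia-like cells.

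Genes with the most similar pattern over classes were found from the correlation of log2(CPM + 10) over 16 values, 8 classes in each of both libraries, among 10369 genes. The values share libraries, depth and classes, so the correlations are descriptions. For Sox4 these genes were Marcksl1 (Pearson r = 0.981), Fscn1, which encodes an actin-bundling protein (r = 0.981), and Cd24a, which encodes a cell surface glycoprotein (r = 0.979). For Sox11 they were the splicing factor gene Rbfox2 (r = 0.962), the homeobox gene Hmx1 (r = 0.960) and Fxyd6 (r = 0.958). For Sox12 they were Zfp652 (r = 0.963), Zbed5 (r = 0.948) and Dmwd (r = 0.944). Hmx1, for example, was at 1303 CPM in control amacrine-like cells and 171 CPM in RPC-like cells. The SoxC genes were less alike, with r = 0.510 between Sox4 and Sox11, -0.118 between Sox4 and Sox12 and -0.439 between Sox11 and Sox12.

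The share of cells with a UMI was compared after each cell was thinned to 1000 UMIs, and 453 control and 320 Mettl3-CKO cells of lower depth were not counted. Sox4 was detected in 97.5% of control neurogenic-like, 96.8% of amacrine-like, 96.6% of bipolar-like, 73.1% of Müller-like and 63.2% of RPC-like cells. In control rod-like cells the share was 22.7% and in cone-like cells 10.9%, and microglia-like cells, used here as the background class, had 27.3% (6 of 22 cells, exact 95% interval 10.7–50.2%) at a median depth of 1500.5 UMIs. In the Mettl3-CKO library the shares were 28.1% in rod-like, 24.5% in cone-like and 14.3% in microglia-like cells (3.05–36.3%). The Sox4 shares of rod-like and cone-like cells were thus not apart from the background class. Unthinned, the shares were 49.2%, 41.7% and 38.2% in rod-like, cone-like and microglia-like control cells, with median depths of 4113, 8388.5 and 1500.5 UMIs.

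Sox11 was detected in 77.8% of control amacrine-like, 36.3% of RPC-like, 20.9% of neurogenic-like and 12.8% of Müller-like cells. In control microglia-like cells the share was 4.55% (1 of 22 cells, 0.115–22.8%), and 1 cell held all 6 Sox11 UMIs of that class. In the Mettl3-CKO library it was 0 of 21 microglia-like cells. By the limit of 3 counts used here for a count of 0, the latter allows up to 14.3% (the exact upper bound is 16.1%). In Müller-like cells the share was 15.1 percentage points higher in the Mettl3-CKO library (27.9%), with a 95% interval of 9.09 to 21.3 points. In bipolar-like cells it was 3.45% of control and 10.5% of Mettl3-CKO cells, a difference of 7.04 points (1.09 to 14.1). Both shares were within what the background class allows. In RPC-like cells of the Mettl3-CKO library it was 42.4%, and the interval of the difference included 0 (-3.17 to 15.2 points). The rod-like shares of 1.69% and 2.66% were also within what the background class allows.

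Sox12 was detected in few thinned cells, from 0.549% of control RPC-like to 15.8% of Mettl3-CKO rod/bipolar precursor-like cells among the neural classes. The background class had 0 of 22 control and 0 of 21 Mettl3-CKO cells, which by the same limit allows up to 13.6% and 14.3%. This limit is wide because the class has few cells, so most Sox12 shares could not be told apart from it. By level, control microglia-like cells were at 9.39 CPM (1.14–33.9), below the intervals of bipolar-like (90.4–124) and rod-like cells (111–128). The intervals of RPC-like (12.3–25.3) and neurogenic-like cells (26.7–42.5) overlapped it. In neurogenic-like cells the share was 3.19% of control and 7.14% of Mettl3-CKO cells, a difference of 3.95 points (0.136 to 7.83). In RPC-like cells 1 of 182 control and 11 of 309 Mettl3-CKO cells had a UMI. In Müller-like cells the shares were 2.05% and 4.22%, and the interval of the difference included 0 (-0.498 to 5.26 points).

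**Figure D2:**
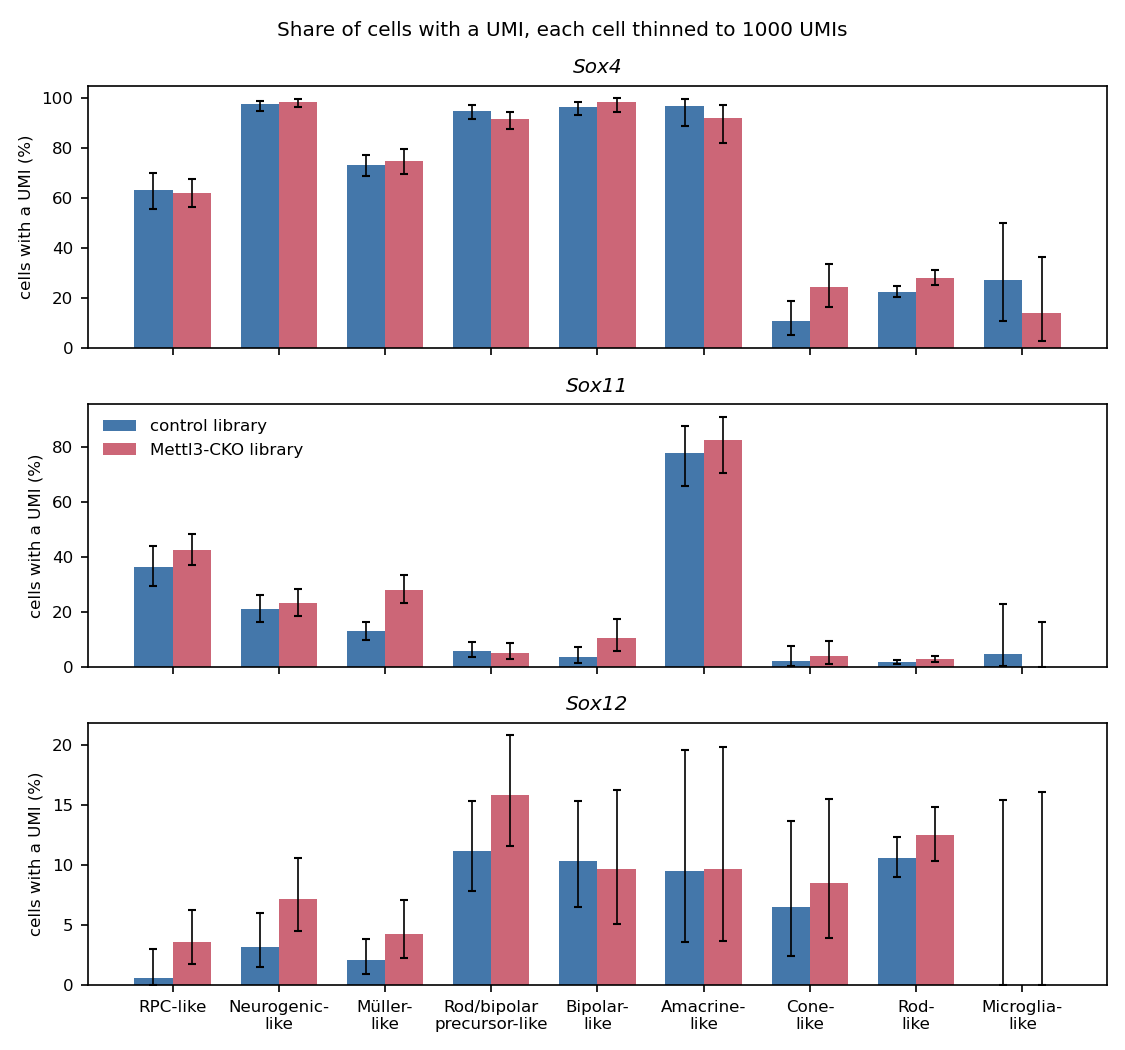
Share of cells with a UMI of each SoxC gene (percent, each cell thinned to 1000 UMIs) by class, with the control library in blue and the Mettl3-CKO library in red; bars start at 0 and error bars are exact binomial 95% intervals. The Sox11 share of Müller-like cells is 12.8% for control and 27.9% for Mettl3-CKO cells, and Sox4 is detected in over 90% of neurogenic-like, bipolar-like and amacrine-like cells.

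Sox4 and Sox11 were detected together in 76.2% of control and 75.8% of Mettl3-CKO amacrine-like cells after thinning. The same pair was found in 24.7% of control and 28.5% of Mettl3-CKO RPC-like cells. In Müller-like cells the pair was found in 10.3% of control cells (exact interval 7.59–13.5%) and 22.4% of Mettl3-CKO cells (17.9–27.5%). The product of the separate Sox4 and Sox11 shares was 9.34% and 20.9% in Müller-like cells and 75.3% and 75.6% in amacrine-like cells, so the shares of the pair followed those of the single genes. Müller-like cells with Sox4 alone made up 61.6% and 51.0%. Sox11 without Sox4 was found in 11.5% of control and 13.9% of Mettl3-CKO RPC-like cells, the class with the largest such share in both libraries. Cells with UMIs of all SoxC genes were rare, at 0.311% of all control and 0.932% of all Mettl3-CKO cells.

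The comparison of the libraries addressed whether SoxC levels differ between control and Mettl3-CKO retinas in each class. Sox11 was higher in the Mettl3-CKO library over all cells, at 320 CPM against 225 CPM (ratio 1.43, 1.37–1.48). Of all genes with at least 100 UMIs, 4.15% were at least 1.5 times higher. The libraries differed in class makeup, so each SoxC ratio over all cells, here and below, mixes makeup with level. RPC-like cells made up 5.28% of the control library but 11.1% of the mutant one. For rod-like cells the shares were 35.9% and 28.5%, and for amacrine-like cells 1.88% and 2.12%. The part of class makeup in these ratios was not tested. By class the Sox11 interval lay above 1 in 6 of 9 classes, below 1 in amacrine-like cells, and included 1 in rod/bipolar precursor-like and microglia-like cells. The share of all genes whose interval excludes 1 was not computed, so this count of classes has no background. In Müller-like cells Sox11 was at 180 CPM in control and 334 CPM in mutant cells (ratio 1.86, 1.67–2.06), and 6.68% of genes in that class were past 1.5-fold higher. The 9 summed Müller markers were at 13551 CPM in control and 8881 CPM in Mettl3-CKO Müller-like cells, and their part in the Sox11 ratio was not tested. Neurogenic-like cells had 299 and 416 CPM (ratio 1.39, 1.26–1.54), and RPC-like cells 502 and 601 CPM (ratio 1.20, 1.11–1.30). Sox11 and Sox12 stood in the study's own lists of genes of mutant Müller and RPC clusters, which were made from these libraries, so their ratios are not independent evidence of a direction. The shares of all genes past 1.5-fold are given as background to ratios on which the group was chosen, and nothing was read from them.

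Sox11 ratios past 1.5 were also seen in bipolar-like, cone-like and rod-like cells, where its level was low. Bipolar-like cells had 51.1 CPM in the control library and 112 CPM in the mutant one (ratio 2.19, 1.62–2.98), with 5.58% of genes past 1.5-fold higher. Bipolar-like Mettl3-CKO cells with Y-linked UMIs only were at 52.4 CPM (ratio 1.02, 0.568–1.75), and thinning of each cell gave a ratio of 3.98, whereas cells named by their own markers gave 1.34. Cone-like cells had 23 and 85 UMIs (27.3 and 56.1 CPM, ratio 2.05, 1.28–3.41), with 5.49% of genes past that fold higher and 2.44% lower. Without the 5% of cells with the highest doublet scores the cone-like ratio was 1.14, and for Mettl3-CKO cells with Xist UMIs only it was 4.12. Rod-like cells had 17.0 and 48.1 CPM (ratio 2.82, 2.23–3.6), with 2.57% of genes past that fold higher and 1.12% lower, and thinned cells gave 1.85.

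Beside these ratios, the spread over cells and transcripts of other cell types were examined in rod-like and cone-like cells. In Mettl3-CKO rod-like cells 46.5% of Sox11 UMIs came from 5 of 886 cells, against 27.3% from 5 of 1433 control cells. In rod-like cells without a UMI of any amacrine marker Sox11 was at 19.8 and 33.3 CPM. Sox11 in rod-like cells was thus concentrated in few cells. In the same class Tubb3, a neuronal tubulin gene, was at 41.3 and 110 CPM (ratio 2.67), and Sox9, a gene of RPCs and Müller glia, at 17.9 and 37.3 CPM (ratio 2.08). The 6 summed amacrine markers were at 102 CPM in control and 97.4 CPM in mutant rod-like cells. Control cone-like cells had a median of 8388.5 UMIs and mutant ones a median of 12840 UMIs, and 5 cells held 65.2% and 65.9% of their Sox11 UMIs. In cone-like cells Tubb3 was at 287 and 243 CPM (ratio 0.845, 0.717–0.998), and the interval of the Sox9 ratio included 1 (1.30, 0.690–2.56). The part of these measures in the ratios was not tested.

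In amacrine-like cells, the class with the most Sox11, Sox11 was at 3642 CPM in control and 3032 CPM in mutant cells (ratio 0.833, 0.782–0.886). In this class 3.89% of genes were past 1.5-fold higher and 2.38% past 1.5-fold lower, and no SoxC gene was among them. The mean of each cell's own CPM gave a Sox11 ratio of 1.0, and the median cell had 15 Sox11 UMIs in the control library and 23.5 in the mutant one. The direction of the amacrine-like value therefore depended on how cells were weighted. The summed amacrine markers were at 1242 and 980 CPM in the same cells. In rod/bipolar precursor-like cells Sox11 was at 72.7 and 64.7 CPM (ratio 0.890, 0.673–1.17), and 1.73% of genes were past 1.5-fold higher and 1.19% lower. This ratio was 1.5 when each cell was named from its own markers.

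Sox12 was higher in the Mettl3-CKO library in the neural classes where it was lowest in the control. In microglia-like cells it had 2 and 3 UMIs, too few to compare. RPC-like cells had 32 control and 130 Mettl3-CKO UMIs, or 18.0 and 41.8 CPM (ratio 2.33, 1.57–3.54), with 5.76% of genes past 1.5-fold higher. After thinning, the ratio in RPC-like cells was 6.48, from the 1 and 11 positive cells named above. Müller-like cells had 21.5 and 39.1 CPM (ratio 1.82, 1.33–2.49) and neurogenic-like cells 33.9 and 59.5 CPM (ratio 1.75, 1.32–2.36), with 3.17% of genes past 1.5-fold higher in the latter. Where Sox12 was high in the control, its ratios were smaller, at 1.25 (1.04–1.51) in rod/bipolar precursor-like, 1.27 (1.15–1.41) in rod-like and 1.43 (1.13–1.80) in bipolar-like cells. The bipolar-like ratio was 0.893 after thinning. Intervals included 1 in amacrine-like (1.36, 0.929–2.01) and cone-like cells (1.15, 0.906–1.46). Over all cells Sox12 was at 85.9 and 107 CPM (ratio 1.25, 1.17–1.33), short of 1.5-fold. For cells with Y-linked UMIs only, that ratio was 1.03.

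Sox4 ratios lay near 1 in the classes where it was abundant. Over all cells it was at 2581 CPM in control and 2366 CPM in mutant cells (ratio 0.917, 0.906–0.928), but the mean of each cell's own CPM gave 1.03 and thinning gave 1.01. Neurogenic-like cells had 6225 and 5857 CPM (ratio 0.941, 0.919–0.964), rod/bipolar precursor-like cells 4886 and 4410 CPM (ratio 0.903, 0.873–0.933) and amacrine-like cells 6089 and 5031 CPM (ratio 0.826, 0.787–0.867). Bipolar-like cells had 6602 and 6554 CPM, and the interval of the ratio included 1 (0.961–1.03). In RPC-like cells the ratio of 0.95 (0.906–0.995) turned to 1.03 at both other clustering resolutions, and in Müller-like cells the ratio of 0.917 (0.886–0.948) turned to 1.10 without subclusters led by markers of other classes. The direction of Sox4 in these progenitor and glial classes was thus not settled by the data.

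Within the RPC-like class the Sox4 ratio differed between clusters. In the cluster led by the G2/M genes Top2a, Ube2c and Cenpf, Sox4 was at 1394 CPM in control and 1573 CPM in mutant cells (ratio 1.13, 1.06–1.20). In the cluster led by the S-phase genes Ung, Mcm6 and Mcm3 it was at 2190 and 1513 CPM (ratio 0.691, 0.642–0.744). Sox11 was higher in the former (565 and 709 CPM, ratio 1.26, 1.14–1.38), and in the latter its interval included 1 (412 and 439 CPM, ratio 1.07, 0.911–1.25). Sox12 was higher in both, with ratios of 2.61 (1.5–4.81) and 2.07 (1.14–4.03). A further RPC-like cluster, of low depth (54 control and 78 mutant cells with medians of 1089 and 1245.5 UMIs), had ratios whose intervals included 1 for all SoxC genes. Among neurogenic-like cells, the cluster led by Neurog2 and Olig2 had more Sox11 (678 and 848 CPM) than the cluster led by Mybl1 and Atoh7 (166 and 264 CPM), and in both the interval of the ratio lay above 1. Within either library, Sox11 thus differed more between these neurogenic-like clusters than it did between the libraries.

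In photoreceptors Sox4 was low and its ratios were large. Cone-like cells had 303 and 717 CPM (ratio 2.37, 2.06–2.72) and rod-like cells 419 and 665 CPM (ratio 1.59, 1.51–1.67). The cone-like ratio was 0.695 (0.503–0.944) for Mettl3-CKO cells with Y-linked UMIs only and 3.29 for those with Xist UMIs only, and it was 3.91 after thinning and 1.58 when each cell was named from its own markers. The median cone-like cell had 0 Sox4 UMIs in the control library and 2 in the mutant one, and 5 cells held 60.8% and 42.1% of the UMIs. Of the 1086 mutant cone-like UMIs, 535 came from 33 of 108 cells with both Xist and Y-linked UMIs (median depth 20778 UMIs). Among rod-like cells, 1492 of the 3388 mutant UMIs came from 91 cells with both Xist and Y-linked UMIs, and without such cells the rod-like ratio was 1.17. Rod-like cells were spread differently over their clusters, since the cluster led by Ccdc136, Nr2e3 and Samd7 contained 433 of 1433 cells in the control library but 347 of 886 in the mutant one. In it Sox4 was at 772 and 1087 CPM (ratio 1.41, 1.32–1.5), and in the cluster led by Sag and Pdc at 282 and 278 CPM (ratio 0.987, 0.860–1.13). Microglia-like cells had 111 and 73 UMIs (ratio 0.554, 0.407–0.752), with 7.01% of genes past 1.5-fold lower and 6.05% higher. The ratio was 0.280 without the highest doublet scores and 0.220 for cells with Y-linked UMIs only. Over all alternatives it ranged from 0.220 to 0.827, and 5 cells held 89.2% and 86.3% of the UMIs.

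**Figure D3:**
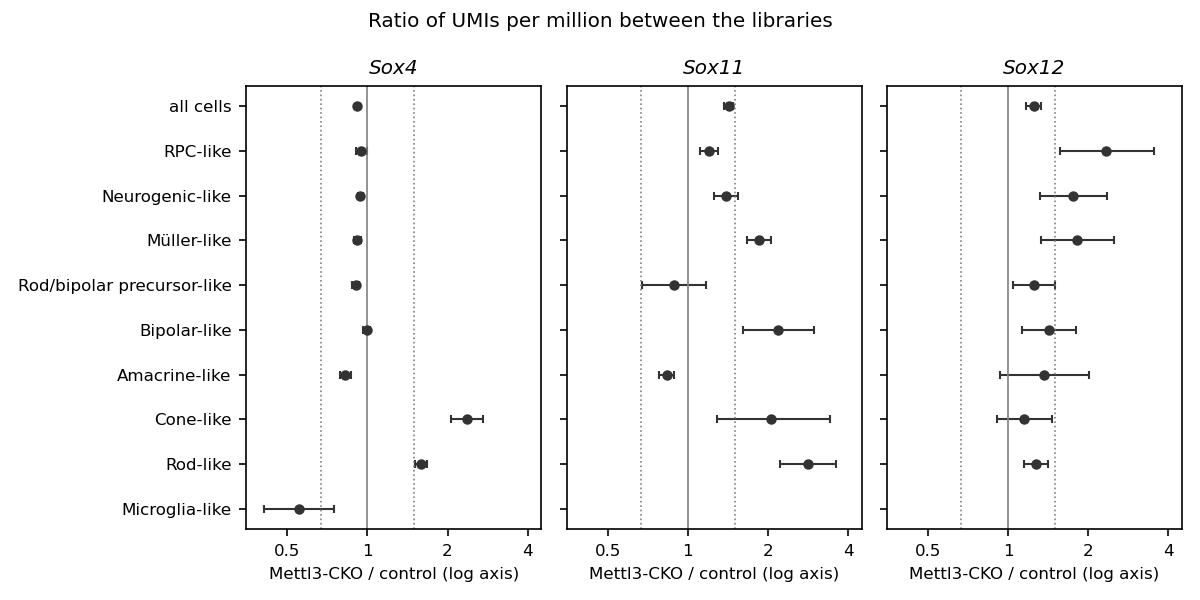
Ratio of the level (CPM) in the Mettl3-CKO library to that in the control library (log axis) for each SoxC gene, over all cells and by class; bars are exact 95% intervals, the solid line marks 1 and the dotted lines 1.5-fold in either direction, and classes with fewer than 20 UMIs are left out. Sox12 lies at 2.33 in RPC-like cells and Sox11 at 1.86 in Müller-like cells, whereas Sox4 lies between 0.826 and 0.993 in the 6 classes where it exceeds 1000 CPM.

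Müller-like cells were clustered again to see which of them carried the difference in Sox11. A subcluster led by Cdkn1a and Phlda3, known p53 target genes, and by Serpine2 held 120 Mettl3-CKO and 3 control cells. Its Mettl3-CKO cells had 428 CPM of Sox11 (389–469), 2189 CPM of Sox4 and 51.2 CPM of Sox12. Sox11 was 1.60 times as high there as in the remaining 223 Müller-like cells of the mutant library (1.39–1.84), and those remaining cells were in turn 1.51 times the control level (1.33–1.72). Sox12 was 1.69 times as high in the subcluster as in the remaining cells (1.11–2.56), and for those remaining cells against the control the interval included 1 (1.40, 0.946–2.06). Sox4 was 0.934 times as high in the subcluster (0.886–0.985).

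The other subclusters of Müller-like cells differed from each other more in Sox4 than between libraries. The subcluster led by Npy and Phlda1 had 1858 and 1675 CPM of Sox4 and 132 and 202 CPM of Sox11 in its 214 control and 61 Mettl3-CKO cells. The subcluster led by Neurog2, Gadd45g and Dll1, genes of neurogenic cells, had 4767 and 3864 CPM of Sox4 and 372 and 423 CPM of Sox11. The level of Sox11 in the Cdkn1a-led Mettl3-CKO cells lay within the interval of that neurogenic-led subcluster in the Mettl3-CKO library (367–485 CPM). Its Sox4 level was far below that of the neurogenic-led subcluster. Without the subclusters led by markers of other classes, the Sox11 ratio of Müller-like cells was 2.56. Subclusters were defined from the same cells, so these levels describe them and test nothing.

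**Figure D4:**
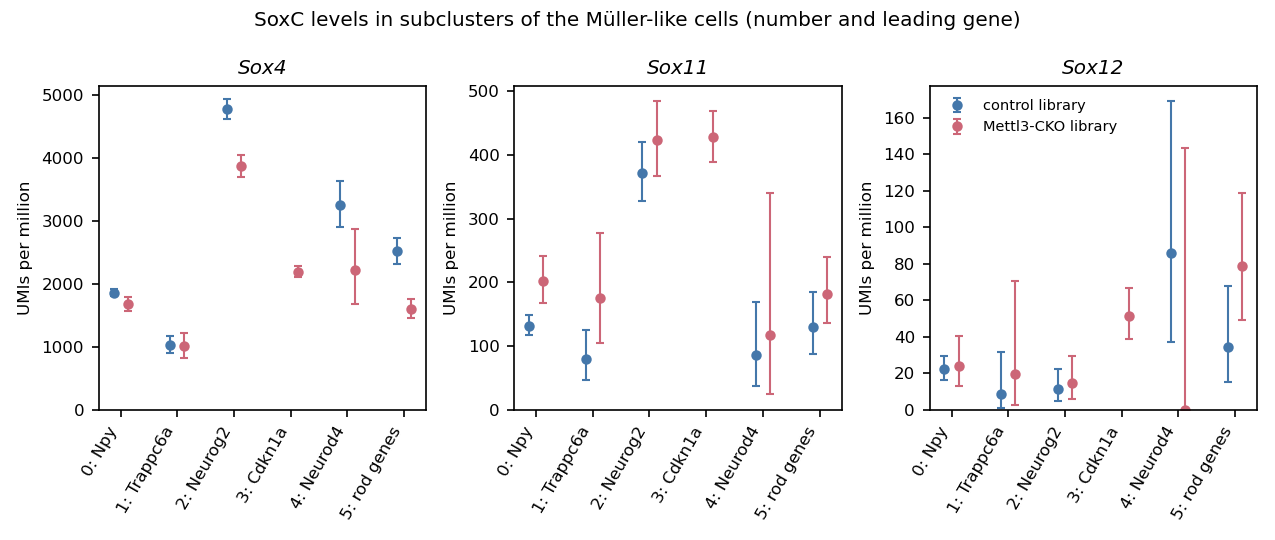
SoxC levels in CPM (linear axes from 0) in subclusters of the Müller-like cells, named by number and leading gene, with the control library in blue and the Mettl3-CKO library in red; bars are exact Poisson 95% intervals, and groups with fewer than 10 cells are left out. Cdkn1a-led Mettl3-CKO cells have 428 CPM of Sox11, and the Neurog2-led cells have the highest Sox4 levels of both libraries.

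The Mettl3-CKO cells with only Xist and those with only Y-linked UMIs were each set beside the control cells. For Sox11 the interval lay above 1 in both sets in RPC-like (1.17 and 1.29), neurogenic-like (1.42 and 1.27), Müller-like (2.19 and 1.59) and rod-like cells (2.32 and 1.88). In Müller-like cells the Xist set had 394 CPM and the Y-linked set 286 CPM, both above the control level of 180 CPM. For Sox12 both intervals lay above 1 in RPC-like (2.27 and 2.37) and neurogenic-like cells (1.66 and 1.62), and in Müller-like cells only that of the Y-linked set did (1.47, 0.977–2.20, and 2.14, 1.41–3.20). Over all cells the Sox12 ratio was 1.20 (1.11–1.30) in the Xist set and 1.03 (0.928–1.14) in the Y-linked set. The direction of Sox11 and Sox12 in RPC-like and neurogenic-like cells was the same in both sets. Both sets were divided by the same control level, so this sameness is a description and no independent evidence. The 86 RPC-like Mettl3-CKO cells with no sex-linked UMI, at a median of 1358 UMIs, had a Sox11 ratio of 0.974 (0.796–1.18). For Sox4 the intervals of both sets included 1 in RPC-like cells (1.02 and 0.984), and both lay below 1 in neurogenic-like cells (0.946 and 0.922).

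**Figure D5:**
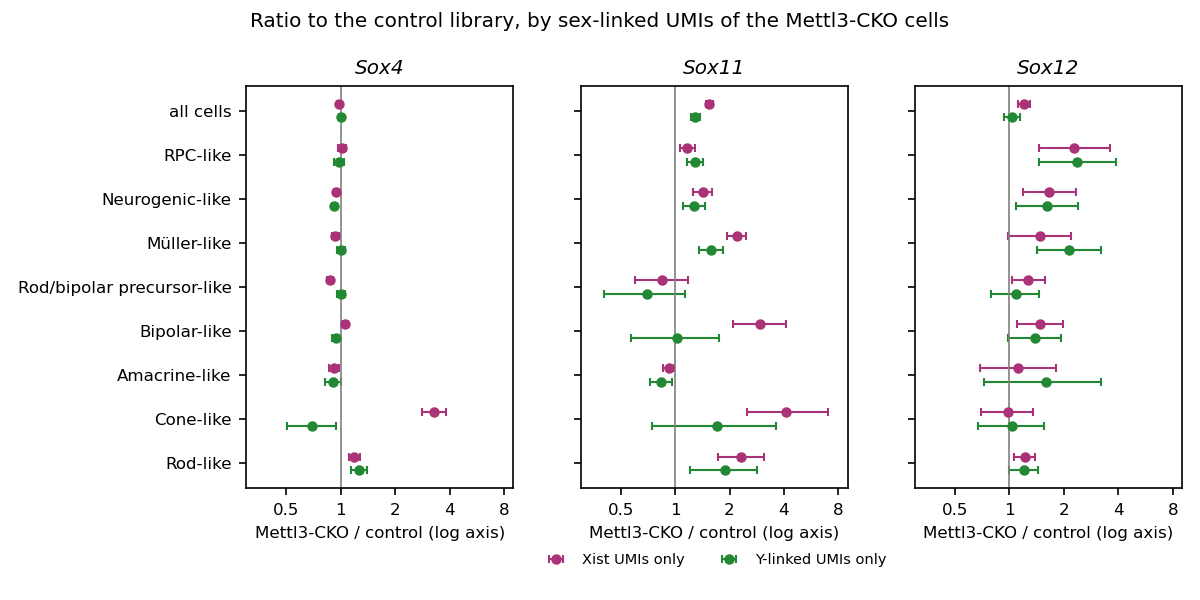
Ratio of SoxC levels to the control library (log axis) for Mettl3-CKO cells with only Xist UMIs (purple) and with only Y-linked UMIs (green), over all cells and by class; bars are exact 95% intervals and the line marks 1. Both sets lie above 1 for Sox11 in RPC-like, neurogenic-like, Müller-like and rod-like cells, and they lie on opposite sides of 1 for Sox4 in cone-like cells (3.29 and 0.695).

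The 16 other Sox genes were described in RPC-like and Müller-like cells beside the SoxC genes. Of these, 5 had at least 100 UMIs in RPC-like cells, and their median ratio was 1.01, beside 1.03 over all genes tested in that class. Sox9 and Sox2, which maintain progenitors and mark Müller glia, were at 657 and 708 CPM (ratio 1.08, 1.0–1.16) and at 479 and 482 CPM (ratio 1.01, 0.925–1.10). Sox8 was at 176 and 136 CPM (ratio 0.771, 0.665–0.896). Sox13 was at 16.8 and 23.8 CPM (ratio 1.41, 0.913–2.24), and Sox1, with fewer than 100 UMIs, at 13.5 and 22.5 CPM (ratio 1.67, 1.04–2.78). Among RPC-like genes with at least 20 UMIs, 11.6% were past 1.5-fold higher. In Müller-like cells 7 of the 16 had enough UMIs, with a median ratio of 1.0 beside 1.03 over all genes. There Sox9 was at 1054 and 1056 CPM and Sox2 at 476 and 487 CPM, and both intervals included 1. Of these 7 genes, Sox13 was past 1.5-fold higher (19.8 and 31.2 CPM, 67 and 79 UMIs) and Sox6 past 1.5-fold lower (29.5 and 19.3 CPM, 100 and 49 UMIs), beside 6.68% of all genes past that fold higher and 2.42% lower. Sox1, a SoxB gene of neural progenitors, again with fewer than 100 UMIs, was at 2.06 and 20.1 CPM (7 and 51 UMIs, ratio 9.75, 4.41–25.5) in Müller-like cells.

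Of 6 genes reported as targets of SoxC factors, Dcx had fewer than 100 UMIs in each class. The other 5 had a median ratio of 1.02 in RPC-like cells and 0.923 in Müller-like cells, beside 1.03 over all genes in both. Stmn1, which encodes a microtubule-destabilising protein of growing neurites, was lower in the Mettl3-CKO library in RPC-like (3373 and 2683 CPM, ratio 0.796, 0.770–0.823) and Müller-like cells (832 and 678 CPM, ratio 0.815, 0.767–0.866). Neurod1, a proneural factor of photoreceptor and amacrine precursors, was higher in RPC-like (159 and 258 CPM, ratio 1.63, 1.42–1.87, with 5.76% of genes past 1.5-fold higher) and Müller-like cells (141 and 208 CPM, ratio 1.47, 1.30–1.67). Tubb3 and Tead2 had intervals that included 1 in both classes. For Map2 the interval included 1 in RPC-like cells (0.865, 0.700–1.07) and lay below 1 in Müller-like cells (125 and 103 CPM, ratio 0.819, 0.699–0.958). In bipolar-like cells, where Sox11 was 2.19 times as high, Tead2 was at 28.6 and 79.7 CPM (ratio 2.79, 1.89–4.16, with 5.58% of genes past 1.5-fold higher) and Map2 at 141 and 92.6 CPM (ratio 0.655, 0.504–0.845, with 7.02% of genes past 1.5-fold lower). Short of 1.5-fold in these cells, Neurod1 (1.48, 1.37–1.60) and Tubb3 (1.12, 1.03–1.21) were higher, and Stmn1 was lower (0.809, 0.777–0.842).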

How the data were processed

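Retinas were digested with papain and libraries were made with 10x Chromium Single Cell 3′ V3.1 kits. Per the study's methods and the submitters' processing notes, the authors processed reads with Cell Ranger 3.1.0 on GRCm38/mm10 and analysed cells with Seurat 3.1. The deposited values are raw UMI counts per gene and cell. Both matrices as used here end before the number of entries in their size line is reached, so they were read up to the last complete cell, which took in 66.4% of control entries (3994 of 5995 barcodes) and 44.5% of Mettl3-CKO entries (3109 of 6992 barcodes), and the other cells were not analysed here. All complete cells were kept. The study's filter (over 200 genes, under 20% mitochondrial UMIs) would remove 237 and 86 cells.

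UMIs of 13 mitochondrial genes (5.53% and 4.19%) were left out of totals. Cells were normalised to 10000 UMIs and clustered with scanpy 1.11.5 (2000 variable genes without Sox, SoxC-linked, sex-linked or Mettl3 genes, 10 principal components, 20 neighbours, Leiden resolution 1). The 20 clusters were named by fixed markers, and 4 stayed unnamed. UMIs were summed per class and library. Intervals are exact at 95%, Poisson for CPM, conditional binomial for ratios and Clopper-Pearson for shares. Intervals of differences in shares combine the limits of both shares. With 1 library per group no test was made. A ratio past 1.5-fold was counted among genes with at least 100 UMIs in both libraries together. The ratio intervals were checked only on simulated independent Poisson counts. Such counts hold no clumping of UMIs in few cells and no spread between libraries, so the check does not show how the intervals cover these data. Doublets were not removed, since Scrublet marked only 3 control and 7 Mettl3-CKO cells. However, 220 Mettl3-CKO cells had both Xist and Y-linked UMIs, so the Scrublet count does not show that doublets were few.

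Named genes were the SoxC genes, 16 other Sox genes, 6 genes reported as SoxC targets, and for each SoxC gene the 3 genes of at least 200 UMIs with the highest correlation over classes. The SoxC genes and these lists were chosen with earlier results of these data known. Gene positions and transcripts are from GENCODE M21. A cluster of rod-like cells is not reported here on its own.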

Additional observations from a re-analysis of the deposited data

Results flagged for a closer look

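Xist, which is not among the genes compared, was at 1.53 CPM among control cells and at 1544 CPM among Mettl3-CKO cells. The control retinas thus held almost no Xist-expressing cells and the Mettl3-CKO pool held many, and ratios for its Y-linked cells are given in the report. Cells with both Xist and Y-linked UMIs numbered 220 of 3109 in the Mettl3-CKO library, with a median of 11334.5 UMIs, against 5409 UMIs in cells with Xist only.

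For Sox4 and Sox11 the ratio between libraries went in opposite directions in different classes, and the difference between classes was not tested. The Sox4 ratio was 2.37 in cone-like and 0.554 in microglia-like cells. The Sox11 ratio was 2.82 in rod-like and 0.833 in amacrine-like cells. Each group is 1 library, so no sample could be compared with others of its group.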

How the results depend on the processing

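No paired analysis was possible because each group is 1 library. Removal of cells marked by Scrublet was not run, since its threshold marked under 0.5% of cells. Alternatives chosen after seeing the data were leaving out the highest 5% of doublet scores, the Mettl3-CKO cells with both Xist and Y-linked UMIs, or the Müller-like subclusters led by other markers. Of the alternatives for each gene, 77 of 125 kept the ratio of Sox4 within its interval, 87 of 113 that of Sox11 and 107 of 113 that of Sox12. The direction was reversed in 12 alternatives for Sox4, 1 for Sox11 and 1 for Sox12. Sox12 has few UMIs and wide intervals, so its count does not make it the most stable gene. The cause was not tested for any ratio below.

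The Sox4 ratio over all cells (0.917) was 1.03 as mean of per-cell CPM, 1.01 thinned, 1.0 for cells with Y-linked UMIs, 0.975 for cells with Xist, 0.903 with median-of-ratios scaling, 0.93 with mitochondrial UMIs and 0.965 without cells with both. In RPC-like cells (0.95) it was 1.03 at resolutions 2 and 0.5, 1.11 with cells named by own markers, 1.02 for cells with Xist and 1.02 without high doublet scores. In Müller-like cells (0.917) it was 1.0 for cells with Y-linked UMIs, 1.10 without other-led subclusters, 0.867 with median-of-ratios scaling, 0.948 as mean of per-cell CPM, 0.839 at resolution 2, 0.880 at resolution 0.5 and 0.954 without high doublet scores. For cells with Y-linked UMIs it was 1.0 in rod/bipolar precursor-like and 0.695 in cone-like cells.

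The Sox11 ratio over all cells (1.43) was 1.60 as mean of per-cell CPM, 1.69 thinned, 1.55 and 1.29 for cells with Xist and Y-linked UMIs and 1.34 without high doublet scores. It was 1.33 in RPC-like cells named by own markers. In Müller-like cells it was 2.32 thinned, 2.19 and 1.59 for cells with Xist and Y-linked UMIs and 2.56 without other-led subclusters. In amacrine-like cells it was 1.0 as mean of per-cell CPM. The Sox12 ratio over all cells (1.25) was 1.16 as mean of per-cell CPM, 1.03 for cells with Y-linked UMIs and 1.16 without cells with both. It was 6.48 in thinned RPC-like and 0.893 in thinned bipolar-like cells.

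Unthinned, the difference in the share of cells with a UMI was 6.71 points for Sox4, 12.8 for Sox11 and 8.78 for Sox12 over all cells, and 14.6 and 8.23 for Sox12 in RPC-like and Müller-like cells. With at least 20 UMIs in place of 100, the share of genes past 1.5-fold higher and lower was 6.83% and 5.14% over all cells, 11.6% and 3.90% in RPC-like and 12.9% and 4.45% in Müller-like cells. Depth limits Sox12 in RPC-like and Müller-like cells, which rest on at most 130 UMIs in each library, and SoxC levels in microglia-like cells.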

Other observations

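The 839 control and 604 Mettl3-CKO cells that no marker list named were at 1606 and 1293 CPM of Sox4, 64.8 and 90.7 CPM of Sox11 and 129 and 148 CPM of Sox12. Among them, a cluster led by Ttr, Rgs5 and Crip1, genes of pigment epithelial, pericyte and other non-neural cells, held 46 control and 17 Mettl3-CKO cells. The astrocyte markers Gfap, Pax2 and S100b were also higher in this cluster, so it cannot be assigned to 1 cell type. Its Sox11 ratio was 1.91 (1.41–2.58), on 106 control and 79 Mettl3-CKO UMIs, and its Sox4 level was 328 and 451 CPM. In the unnamed cluster led by Pcp2 and Ece1, Sox4 was at 1772 and 1252 CPM (ratio 0.707, 0.668–0.747) and Sox11 at 19.1 and 35.6 CPM (ratio 1.86, 1.21–2.90). These clusters were singled out after their values were seen.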
